A study of Mus musculus with 8 samples.

Results

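Normal spermiogenesis in the mouse was followed here from round to elongating spermatids, with RNA from wild-type (WT) animals as the material. The members are the 4 WT libraries of a series of 8, chosen by their labels: 2 of round and 2 of elongating spermatids. Every gene with a normalised read count of at least 10 in at least 2 of the 8 libraries was compared, which gave 15685 of 16349 genes. Both groups are C57BL/6, carry no stated allele and received no treatment, and the labels give no age. For each library, spermatids were purified by centrifugal elutriation from 8 testes, so a library is a pool, and elutriation separates cells by size and density rather than by a marker. The other 4 libraries are the same 2 stages with the genotype label cKO, in a study whose title concerns the arginine methyltransferase CARM1. They entered the fit to estimate the spread and are described below only where the WT stage difference is set beside theirs.

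Spermiogenesis is the part of sperm formation that follows meiosis. A round spermatid transcribes its genome actively and builds the acrosome, the vesicle of hydrolytic enzymes that covers the sperm head. As the cell elongates, histones give way to transition proteins and then to protamines, the nucleus condenses and transcription ceases, while the tail, its surrounding fibres and the mitochondrial sheath are assembled. Many spermatid mRNAs are made early, held in ribonucleoprotein particles and translated later, so an mRNA level at a stage is not a measure of its protein at that stage.

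Recovered reads came to 17190962 and 18143970 in the round WT and 23410938 and 21090436 in the elongating WT libraries. The deposited scaling divided these by size factors of 1.57 and 1.65 against 0.776 and 0.693, so the summed normalised reads were 2.76 times as high in elongating as in round WT libraries. The log2 fold changes below are elongating minus round on the log2(normalised read count + 1) scale, where 1 is a doubling, with the limma standard error after ±. On this scale the median gene differed by 0.01. Dividing instead by each library's total, which compares shares of reads, moved the median gene to -1.43, and values so scaled are named "by share" below. Nothing measured here, such as an added reference RNA, fixes the amount of RNA per cell. Within each stage the 2 libraries lay close: among genes with a mean of at least 1000, 0 of 2587 in round and 1 of 2551 in elongating WT libraries differed more than 2-fold. The labels do not say that the 2 libraries of a stage came from separate animals, so adjusted p-values measure the spread between libraries, which may be technical. Checked against markers, Acrv1 and meiotic genes were higher in the libraries labelled round and protamine genes in those labelled elongating, and markers of macrophages, Sertoli and peritubular cells were higher in both elongating libraries (values below).

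Most genes differed between the stages. By limma with Benjamini-Hochberg adjustment at 0.05, two-sided, 6548 genes (41.7% of those tested) rose and 6300 (40.2%) fell in elongating WT spermatids, so 12848 (81.9%) were called. The changes were large and uneven: 4853 genes (30.9%) rose and 3935 (25.1%) fell more than 2-fold, 2810 rose and 727 fell more than 4-fold, and 446 rose and 6 fell more than 16-fold. By share, 3061 genes (19.5%) rose and 10792 (68.8%) fell. All 6300 genes that fell on the deposited scale also fell by share, whereas 1923 of the 6548 that rose there fell by share. The change of scale lowers nearly every log2 fold change by about the same amount. A fall on the deposited scale is thus a fall by share by construction, and that match is no support for it. The falls and the 3061 rises therefore have the same direction on both scales, and for every other rise named below the value by share is given with it. Of the tested genes, 13459 reached 10 in at least 1 library of each WT stage, and 37.5% of these rose and 44.3% fell. Another 1615 reached 10 only in elongating WT libraries and 418 only in round ones. Such genes passed the filter through the stage where they are high, so their direction is no support for the count of rises or falls.

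**Figure D1:**
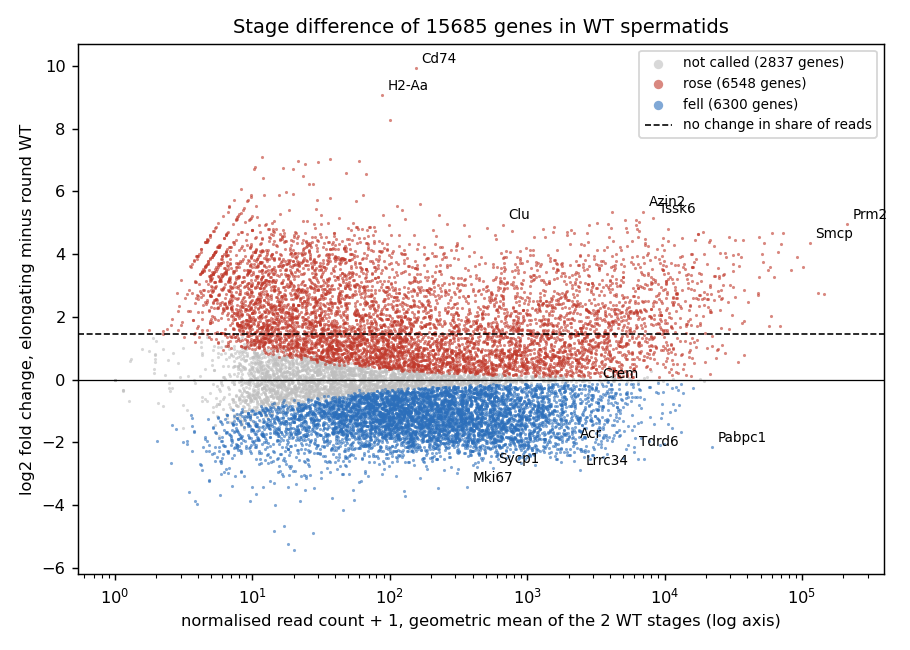
Log2 fold change between elongating and round WT spermatids (y axis) against the geometric mean of the normalised read count + 1 in both stages (x axis, log scale), with 1 point for each of 15685 genes, 6548 that rose in red, 6300 that fell in blue and 2837 not called in grey. Points between the solid and the dashed line are higher on the deposited scale and lower by share of reads, Crem and Acr lie below 0, and the named genes above the dashed line rose on both scales.

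Reads were more concentrated at the elongating stage. Among the 440 genes with a mean of at least 10000 over the 8 libraries, 413 (93.9%) rose and 21 fell, with a median log2 fold change of 2.60, and by share 333 rose and 99 fell. That mean includes the elongating libraries, so genes enter the class through the stage where they are high and its share of rises is in part fixed by the choice. Of the 112 genes with a mean of at least 10000 in the round WT libraries, a cut added after the values were seen, 72 rose and 37 fell (median 0.76), and by share 40 rose and 71 fell. With a mean from 100 to below 1000 over the 8 libraries, 1896 of 5773 genes rose (32.8%) and 3267 fell (56.6%). The count of genes that together took 50% of the reads was 805 and 807 in round WT and 164 and 164 in elongating WT libraries. The 10 most abundant genes of each library accounted for 3.45% and 3.46% of reads at the round and 14.5% and 14.5% at the elongating stage. Elongating spermatids thus held a transcriptome concentrated in fewer genes, and the libraries of a stage could hardly be told apart on this measure.

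**Figure D2:**
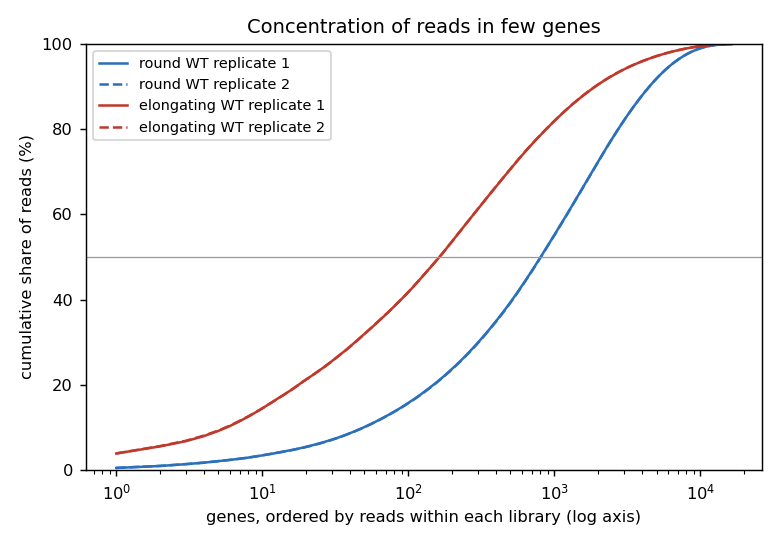
Cumulative share of reads (y axis, percent) over genes ordered by reads within each library (x axis, log scale), with 1 line for each WT library, blue for round and red for elongating, solid for replicate 1 and dashed for replicate 2. The lines of a stage overlie each other, and the grey line at 50% is crossed at 164 genes in both elongating and at 805 and 807 genes in the round libraries.

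Protamine 2 led the elongating libraries. Prm2, one of the 2 main proteins that package sperm DNA, made up 3.90% and 3.91% of all elongating reads, against 0.354% and 0.347% of round reads. The next in elongating libraries were Smcp, a cysteine-rich protein of the mitochondrial capsule (1.67% and 1.73%), the outer dense fibre gene Odf2 (1.22% and 1.24%), the antizyme Oaz3 (1.21% and 1.23%), the transition protein Tnp2 (1.19% and 1.17%) and the hexokinase Hk1 (1.155% and 1.158%). Akap12, Gsg1, 4933411K16Rik and Tcp11 completed the first 10. Round WT libraries were led by Odf2 at only 0.510% and 0.521%, followed by Akap12, the poly(A)-binding protein Pabpc1, Prm2, Atp8b3, the mRNA-binding Ybx2, Fhl4, Hk1, the elongation factor Eef2 and the lactate dehydrogenase Ldhc. Of these 10, Pabpc1 was the one that fell on the deposited scale, from 0.430% and 0.422% to 0.0346% and 0.0346% of reads. Eef2 and Ldhc rose on the deposited scale (0.79 and 0.55) and fell by share (-0.68 and -0.92). Read shares grow with transcript length, so they order genes by reads and not by molecules.

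All 7 tested genes of the proteins that condense the nucleus rose on both scales, with a median log2 fold change of 3.49 against 0.01 for all genes. Their summed share of reads was 0.978% and 0.948% in round and 6.89% and 6.83% in elongating WT libraries. Prm1, the other main protamine, measured 17295 and 15462 in round and 277879 and 269191 in elongating libraries. Its log2 fold change was 4.06 ± 0.05 (adjusted p = 8.8e-19, limma) and 2.60 by share. Prm2 measured 38735 and 38117 in round and 1178034 and 1188677 in elongating libraries, a log2 fold change of 4.94 ± 0.02 (adjusted p = 3.9e-22, limma) and of 3.48 by share. The elongating libraries of both protamine genes lay far above the round ones and within a few percent of each other. For the transition proteins, which occupy DNA between histones and protamines, Tnp1 measured 16525 and 17057 in round and 188678 and 188073 in elongating libraries (3.49 ± 0.03, 2.02 by share). Tnp2 measured 24467 and 23296 in round and 360413 and 356348 in elongating libraries (3.91 ± 0.04, 2.44 by share). The linker histone variants of spermatids rose less: H1fnt by 3.15 and Hils1 by 2.22. Prm3, a protamine-like gene of the same cluster, rose by 3.01. As these are bulk libraries, more transcript per cell and more cells of a kind cannot be told apart, here and in what follows.

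The 250 bases before the start of 5 of these genes are shown because they moved together and Prm1, Prm2, Prm3 and Tnp2 lie side by side on chromosome 16. CREM, an activator of spermatid genes, is known to bind cAMP response elements, so both strands were searched for TGACNTCA, which includes the full palindromic element TGACGTCA. Capitals mark each match, and the sequences are RefSeq's on GRCm38.p6, 5′ to 3′ on the gene's strand, which is the minus strand for all 5. The windows are chr16:10796824-10797073 for Prm1, chr16:10792106-10792355 for Prm2, chr16:10790915-10791164 for Prm3, chr1:73015900-73016149 for Tnp1 and chr16:10788656-10788905 for Tnp2.
Prm1: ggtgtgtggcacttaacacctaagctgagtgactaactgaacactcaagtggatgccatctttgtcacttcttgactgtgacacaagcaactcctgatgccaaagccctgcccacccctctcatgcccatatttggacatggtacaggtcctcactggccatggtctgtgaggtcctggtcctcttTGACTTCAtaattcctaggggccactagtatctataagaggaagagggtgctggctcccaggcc
Prm2: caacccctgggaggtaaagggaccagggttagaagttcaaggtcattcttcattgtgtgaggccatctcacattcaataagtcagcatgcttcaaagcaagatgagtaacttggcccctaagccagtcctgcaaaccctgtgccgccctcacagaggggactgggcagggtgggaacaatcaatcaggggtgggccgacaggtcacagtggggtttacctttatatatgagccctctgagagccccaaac
Prm3: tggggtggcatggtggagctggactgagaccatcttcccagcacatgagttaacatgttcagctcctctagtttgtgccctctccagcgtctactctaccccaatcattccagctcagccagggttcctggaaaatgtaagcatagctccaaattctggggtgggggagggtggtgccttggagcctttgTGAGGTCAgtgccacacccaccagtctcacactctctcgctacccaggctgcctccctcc
Tnp1: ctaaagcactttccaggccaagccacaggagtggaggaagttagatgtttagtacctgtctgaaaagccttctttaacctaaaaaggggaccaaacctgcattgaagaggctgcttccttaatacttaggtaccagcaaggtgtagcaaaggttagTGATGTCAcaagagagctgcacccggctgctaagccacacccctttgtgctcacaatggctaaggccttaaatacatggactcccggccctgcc
Tnp2: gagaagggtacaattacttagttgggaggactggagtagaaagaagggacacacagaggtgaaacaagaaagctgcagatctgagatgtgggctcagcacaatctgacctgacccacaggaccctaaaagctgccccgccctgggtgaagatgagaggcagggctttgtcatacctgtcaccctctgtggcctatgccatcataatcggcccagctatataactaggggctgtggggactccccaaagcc

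A match stood in the windows of Prm1, Prm3 and Tnp1 and in neither that of Prm2 nor that of Tnp2, the pair with the highest levels per kilobase of exon in elongating libraries among the 7. None of these matches is the full element TGACGTCA. Of the 14428 tested protein-coding genes, 11584 had a window in the RefSeq table, and 977 of these windows (8.43%) held a match. A match stood in 9.92% of windows of genes that rose over 4-fold and in 11.9% of those that fell over 4-fold. The full element stood in 1.97% and 2.52% of these windows, against 2.86% of all. Windows were found for 78.3% of those rises and 82.5% of those falls, and the differences were not tested. The genes shown were picked because they moved together, so their matches do not describe rising genes in general. A match is a description of the letters, and its absence says only that they are not in this window.

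Of 23 tested genes of histone removal and histone variants, 7 rose and 11 fell (30.4% and 47.8%, against 41.7% and 40.2% of all genes), and by share 4 rose and 18 fell, which is near the shares of all genes. Hspa2, a chaperone needed in meiosis and for transition protein assembly, fell from 19271 and 18975 to 4498 and 4557 (-2.08 ± 0.03). The bromodomain gene Brdt, whose protein binds acetylated histones as they are removed, fell from 4032 and 4085 to 3423 and 3595. That was slight on the deposited scale (-0.21 ± 0.04) and larger by share (-1.68). The replacement histone genes H3f3a (-0.82) and H3f3b (-1.11) and H2afz (-1.35) fell as well. Psme4, which encodes the activator of the proteasomes that degrade acetylated histones, rose from 9644 and 9806 to 13725 and 13732 (0.50) and fell by share (-0.97). The chromodomain gene Cdyl rose on both scales (2.20 and 0.73 by share), and Camk4, a kinase acting on protamine, did too (2.17 and 0.71 by share). The X-linked variant gene H2afb1 rose from 386 and 398 to 6884 and 6835 (4.12, 2.66 by share), and its relative H2afb3 fell from 49.6 and 44.2 to 6.45 and 5.77. Near-identical copies exist in this family, so the split of reads between these 2 genes is uncertain.

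Regulators of the spermatid programme were compared between round and elongating libraries. Whether transcription had ended in the elongating cells was not measured. Of 26 tested, 11 rose and 15 fell (42.3% and 57.7%), and by share 5 rose and 21 fell. In this list and those below, the counts stand beside 41.7% rises and 40.2% falls of all genes, and 19.5% and 68.8% by share. The rises of the regulators lay near those shares. Crem, the activator of many post-meiotic genes, measured 3347 and 3336 in round and 3050 and 3063 in elongating libraries. That is a log2 fold change of -0.13 ± 0.03 (adjusted p = 0.0032, limma), a small fall on the deposited scale, and of -1.60 by share. Its stages did not overlap, which held for most genes: 46.1% of all tested with elongating and 45.6% with round libraries higher. The largest fall of the list was that of the general factor gene Taf7l, from 709 and 739.7 to 112 and 98.1 (-2.78). Tbpl1, a relative of the TATA-binding protein, fell too (-2.46). Rfx2 and Sox30, both activators in round spermatids, rose on the deposited scale (0.87 and 0.86) and fell by share (-0.59 and -0.61). Fhl5, which encodes the CREM coactivator ACT, rose from 1476 and 1518 to 5083 and 5098 (1.77, 0.30 by share). Kif17, a motor that moves ACT, rose by 2.36 (0.89 by share), and Spz1 rose from 13939 and 14179 to 188805 and 190338 (3.75, 2.29 by share).

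The general transcription and splicing machinery mostly fell. Of 47 genes for RNA polymerase II subunits and general factors, 35 fell and 5 rose (median -1.17), and all 47 fell by share. Tbp, the TATA-binding protein, fell from 2062 and 2080 to 348 and 371 (-2.52 ± 0.12), and Polr2a, the largest polymerase subunit, fell by 1.72. Taf10 had the largest rise of the list (1.13) and fell by share (-0.33). Among 45 splicing factors, 40 fell and 3 rose (median -1.04), and 44 fell by share with none higher. Sf3a3, a component of the U2 particle, fell from 568 and 584 to 128 and 164 (-1.98), the regulator Ptbp2 (-1.88) and Srsf1 (-0.57). Hnrnpa0 rose by 1.21 and was not called by share (-0.24).

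Transcripts of the acrosome were mostly higher in round spermatids, the stage at which that vesicle forms. Of 35 tested, 26 fell and 7 rose (median -0.99), and by share 30 fell and 5 rose. Acr, which encodes the protease acrosin, measured 4513 and 4374 in round and 1091 and 1069 in elongating libraries (-2.04 ± 0.04, adjusted p = 5.7e-16, limma). The acrosomal vesicle protein gene Acrv1, a common marker of round spermatids, measured 3269 and 3269 in round and 1216 and 1268 in elongating libraries (-1.40 ± 0.05). Spaca1 fell by 1.73, the zona pellucida binding protein genes Zpbp and Zpbp2 (-1.88 and -2.44), and the hyaluronidase Spam1 (-1.70). Within the list 5 genes went the other way on both scales. They were Sppl2c, an intramembrane protease, from 3586 and 3331 to 31779 and 32048 (3.21, 1.74 by share), and Prss37, Crisp2, Fam71f1 and Atg7.

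Gamete fusion and surface genes lay near the shares of all genes (41.7% higher and 40.2% lower). Among 9 fusion genes 4 rose and 5 fell, and by share 1 rose and 7 fell. Izumo1, the sperm ligand of the egg receptor JUNO, fell from 1651 and 1680 to 745 and 701 (-1.20 ± 0.05), and Spaca6 fell by 1.11. The largest rise was that of 1700034O15Rik, by 1.91 (0.44 by share), and the largest fall that of Izumo4 (-2.04). Of 27 surface and fertilin genes, 12 rose and 14 fell, and by share 5 rose and 20 fell. Adam2, a fertilin subunit, fell from 4300 and 4538 to 1401 and 1381 (-1.67), as did the chaperones of its folding Clgn (-1.87) and Pdilt (-1.26). Another chaperone of this pathway, Calr3, rose by 2.34 (0.88 by share). Adam3, needed for migration into the oviduct, rose by 0.94 and fell by share (-0.52). Ace, whose germ-cell form is a surface peptidase, rose from 7262 and 7237 to 71528 and 72228 (3.31, 1.84 by share), and Tex101 fell by 2.72.

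The tail genes split by structure. Axonemal genes, which encode the microtubule core with its motors, mostly fell: 41 of 52 fell and 8 rose (median -1.25), and all 52 fell by share. The dynein heavy chain gene Dnah8 measured 13319 and 13973 in round and 5080 and 5073 in elongating libraries (-1.43 ± 0.03), and Dnah1 fell by 1.31, Dnah10 (-2.22) and the assembly factor Lrrc6 (-2.47). The largest rise was that of Cfap69 (1.08), which fell by share (-0.39). Of 35 intraflagellar transport and manchette genes 25 were called lower and 9 higher, and by share 32 fell and 3 rose. Ift88, a transport particle subunit, fell from 1128 and 1136 to 336 and 404 (-1.62), Ccdc42 (-2.19), and Meig1 rose by 0.56 but fell by share (-0.91). The 3 that rose on both scales were Hook1, which links the manchette to its cargo, from 5805 and 5808 to 28429 and 30073 (2.33, 0.87 by share), Spata6, a connecting piece gene (2.67, 1.20 by share), and Clip4 (1.88, 0.42 by share).

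Genes of the sheaths around that core mostly rose on the deposited scale. Of 22 outer dense fibre and fibrous sheath genes, 15 rose and 7 fell (median 1.502), and by share 11 rose and 11 fell, where 19.5% of all genes rose and 68.8% fell. Odf1, a main outer dense fibre protein, measured 10157 and 10035 in round and 239894 and 236062 in elongating libraries (4.56 ± 0.03, 3.09 by share). Akap4, the X-linked scaffold of the fibrous sheath, measured 16967 and 16848 in round and 200875 and 207458 in elongating libraries (3.59 ± 0.03, 2.13 by share). Among the 7 that fell were the tektins Tekt1 to Tekt4, from -1.33 for Tekt1 to -2.30 for Tekt3, and also Fsip1 (-2.43) and Akap14 (-2.53). Tektins are filament proteins bound to microtubules of the axoneme, so the list is not of sheath genes alone. Tekt5 rose by 1.12 and fell by share (-0.34). In the midpiece, annulus and mitochondrial sheath list 15 of 28 rose and 13 fell, and by share 10 rose and 17 fell. Smcp measured 26121 and 24672 in round and 504661 and 527502 in elongating libraries (4.35 ± 0.05, 2.88 by share), and Spem1, needed to shed the cytoplasm, rose from 3570 and 3427 to 86094 and 88742 (4.64, 3.18 by share). Gpx4, the selenoenzyme that hardens the mitochondrial capsule, rose by 2.46 (0.99 by share), and Spata19 rose by 2.23 (0.76 by share). The germ-cell cytochrome c gene Cyct fell by 2.43 and the ADP/ATP carrier Slc25a31 (-2.01).

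Genes of the head skeleton and of ion transport add to that split. In the perinuclear theca and nuclear envelope list 12 of 22 rose and 8 fell (median 0.79), and by share 9 rose and 12 fell. The actin-like genes of the theca rose strongly, Actl11 from 7354 and 7027 to 83239 and 85451 (3.55, 2.09 by share), with Actl9 (3.50), Actrt2 (3.07) and Actl7a (1.96) also higher on both scales, while Actl7b fell (-1.49). The calicin gene Ccin rose by 1.59 (0.13 by share), Cylc1 by 1.55 with no call by share (0.08), and Cylc2 rose by 1.11 and fell by share (-0.35). Of 22 genes for the CatSper calcium channel and other ion transport, 16 fell and 5 rose (median -1.08), and by share 18 fell and 4 rose. The pore subunits Catsper1 to Catsper4 fell, Catsper1 from 4647 and 4673 to 2036 and 2114 (-1.17) and Catsper2 (-2.10), as did the potassium channel Kcnu1 (-1.23). The auxiliary subunit Catsperg1 rose by 2.21 (0.74 by share), while its close relative Catsperg2 fell by 1.001. The sodium pump of sperm, Atp1a4, rose from 7718 and 8026 to 52784 and 52495 (2.74, 1.27 by share), its partner Atp1b3 by 3.71 (2.24 by share), and the bicarbonate-activated cyclase Adcy10 by 1.53 (0.07 by share).

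**Figure D3:**
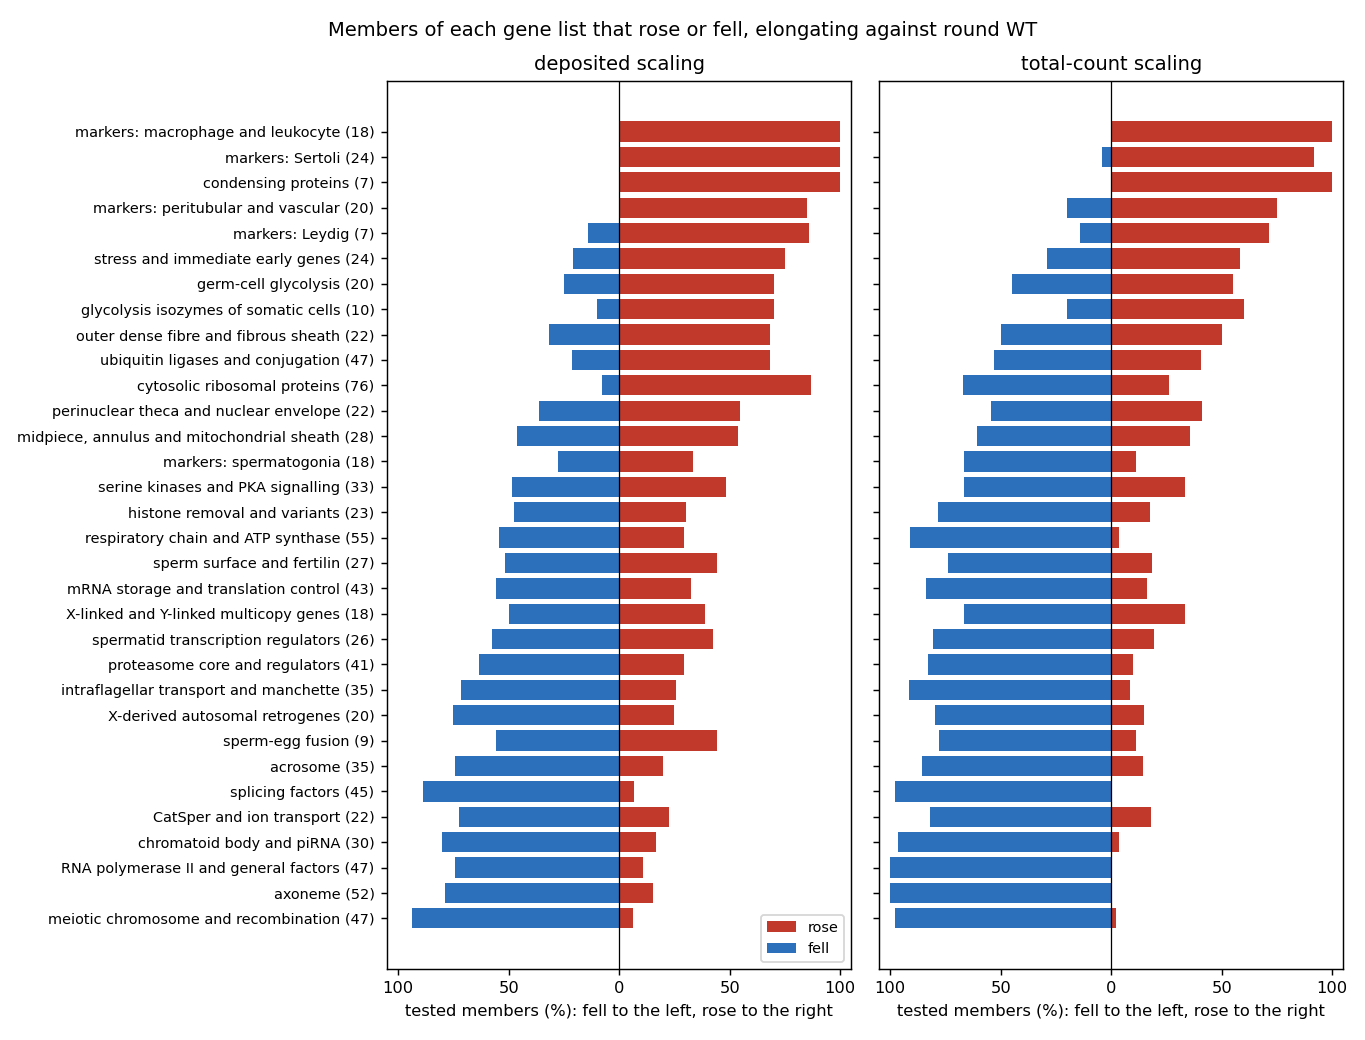
Share of the tested members of each gene list (number in brackets) that rose (red, to the right) or fell (blue, to the left) in elongating against round WT spermatids, in percent, on the deposited scale (left panel) and by total count (right panel), ordered by the list's median log2 fold change. All 7 condensing proteins rose in both panels, all 52 axoneme genes fell by total count, and cytosolic ribosomal proteins turn from 66 of 76 higher to 51 of 76 lower.

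Genes of glycolysis, a source of ATP along the sperm tail, mostly rose on the deposited scale. Of 20 tested germ-cell genes 14 rose and 5 fell (median 2.01), and by share 11 rose and 9 fell. Gapdhs, the germ-cell glyceraldehyde phosphate dehydrogenase anchored to the fibrous sheath, measured 12867 and 12681 in round and 202168 and 205031 in elongating libraries (3.99 ± 0.03, 2.53 by share). The phosphoglycerate kinase Pgk2 measured 5644 and 5843 in round and 59213 and 59215 in elongating libraries (3.37 ± 0.03, 1.90 by share). Gpi1 rose by 4.37, Pkm by 3.76, Hk1 by 3.58, Tpi1 by 3.21 and Aldoart1 by 2.25, all also higher by share. The phosphofructokinase genes Pfkp (-2.09) and Pfkm (-1.80) and the glucose transporter genes Slc2a3 (-1.13) and Slc2a5 (-0.76) fell. Isozymes typical of somatic cells were at low levels apart from Ldha and Gapdh, and 7 of 10 rose, 6 of them by share. Gapdh rose from 409 and 412 to 1751 and 1787 (2.11, 0.64 by share), Pfkl from 7.64 and 12.1 to 204 and 185, and Ldha fell by 0.25.

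Of 33 kinase and protein kinase A genes 16 rose and 16 fell (48.5% each, against 41.7% and 40.2% of all genes), and by share 11 rose and 22 fell, so the list as a whole lay near all genes on the deposited scale. Among the testis-specific serine kinases, Tssk6, needed late in spermiogenesis, measured 1408 and 1372 in round and 50528 and 48040 in elongating libraries (5.15 ± 0.05, 3.68 by share). Tssk2 rose by 2.93 (1.46 by share), Tssk3 by 3.95 (2.49 by share) and their substrate Tsks by 3.07 (1.60 by share). Tssk4 fell by 1.36, and Tssk1 rose by 1.17 but fell by share (-0.30). In the kinase A holoenzyme the catalytic subunit Prkaca fell from 1453 and 1489 to 548 and 538 (-1.44) and the regulatory subunit Prkar1a (-1.08). The regulatory subunit Prkar2a, which binds the anchoring proteins of the tail, rose from 2034 and 2092 to 37204 and 36653 (4.16, 2.69 by share). The subunits of 1 enzyme therefore moved in opposite directions on both scales.

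RNA-handling genes of the chromatoid body, a granule of round spermatids that holds piRNA pathway proteins, mostly fell. Of 30 tested, 24 fell and 5 rose (median -1.15), and by share 29 fell and 1 rose. Tdrd6, a scaffold of that granule, measured 13019 and 13398 in round and 2698 and 2671 in elongating libraries (-2.30 ± 0.03). The helicase genes Ddx4 and Ddx25 fell (-1.95 and -1.54), as did Mov10l1 (-2.46). Piwil1, the PIWI protein of these stages, rose by 0.26 ± 0.09 (adjusted p = 0.019, limma) and fell by share (-1.21). Without any 1 of round WT replicate 1, elongating WT replicate 1 or elongating WT replicate 2, the rise of Piwil1 was not called (0.23, 0.24 and 0.28), nor was it by edgeR with TMM (0.14, adjusted p = 0.088). Dcp1a, a decapping factor, was the exception on both scales, from 195 and 179 to 2154 and 2264 (3.56, 2.09 by share).

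Among 43 genes of mRNA storage and translational control 14 rose and 24 fell (32.6% and 55.8%, against 41.7% and 40.2% of all genes). By share 7 rose and 36 fell. Pabpc1 measured 47021 and 46327 in round and 10450 and 10537 in elongating libraries (-2.15 ± 0.03), and the retrogene copies Pabpc2 (-1.40) and Pabpc6 (-2.29) fell as well. Dazl, which binds and activates germ-cell mRNAs, fell by 2.79. Ybx2, the storage protein of spermatid mRNAs, measured 32333 and 31478 in round and 104075 and 103237 in elongating libraries (1.70 ± 0.03, 0.23 by share). The cap-binding gene Eif4e rose from 1420 and 1442 to 11896 and 12406 (3.08, 1.62 by share), and Fxr1 by 2.61 (1.14 by share). Cytosolic ribosomal protein genes depended on the scale: 66 of 76 rose and 6 fell, with a median of 0.997, whereas by share 20 rose and 51 fell, with a median of -0.47. Rplp0 is an example, with a rise of 1.06 and a fall by share (-0.40). Rps4x rose from 19.1 and 10.9 to 317 and 293 (4.31, 2.89 by share) and Rpl4 fell by 0.78. Processed copies of ribosomal protein genes are common, so single members are uncertain. Rpl41 rose on both scales (3.26, 1.79 by share).

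Ubiquitin genes and the proteasome parted. Of 47 ubiquitin ligases, conjugating enzymes and related genes 32 rose and 10 fell (median 1.11), and by share 19 rose and 25 fell. Rnf138 rose by 3.94 (2.48 by share), Ube2k by 3.67 (2.20 by share) and Klhl10, a substrate adaptor needed for male fertility, by 2.58 (1.11 by share). Azin2, an inhibitor of antizyme, had the largest rise of the list, from 1094 and 1105 to 45114 and 44341 (5.35, 3.88 by share), beside the antizyme Oaz3 (4.68, 3.21 by share). Rnf19a rose by 1.51 with no call by share (0.04), and Ube2b rose by 0.98 and fell by share (-0.49). The deubiquitinase gene Uchl3 fell by 2.45. Ubb, a polyubiquitin gene, measured 7106 and 6236 in round and 4605 and 14133 in elongating libraries. Among genes with a mean of at least 1000 it was the one whose elongating libraries differed more than 2-fold, its stages overlapped, and it was not called by limma (adjusted p = 0.41) but was by edgeR (0.36, adjusted p = 0.03). Of 41 proteasome genes 26 fell and 12 rose, and by share 34 fell and 4 rose, with Psmd12 lower (-1.74) and Psmf1, an inhibitor subunit, higher by 2.86 (1.39 by share). Of 55 respiratory chain and ATP synthase genes 30 fell and 16 rose, and by share 50 fell and 2 rose.

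Meiotic transcripts fell in almost every case. Of 47 tested genes of meiotic chromosomes and recombination 44 fell and 3 rose (median -1.82), and by share 46 fell and 1 rose. Sycp3, of the synaptonemal complex that pairs chromosomes, measured 659.8 and 679 in round and 92.8 and 88 in elongating libraries (-2.88 ± 0.12). Sycp1 fell by 2.83, the recombinase Dmc1 (-1.34) and cyclin A1 (Ccna1) (-1.09). Rad21l, a meiotic cohesin, had 209 reads in round and 3 in elongating WT libraries, a ratio of 31.8 in normalised reads with an exact 95% interval of 10.7 to 155 that covers counting error only. Syce2, a central element protein of that complex, was the exception, measuring 986 and 962 in round and 12503 and 12090 in elongating libraries (3.66 ± 0.04, 2.19 by share).

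**Figure D4:**
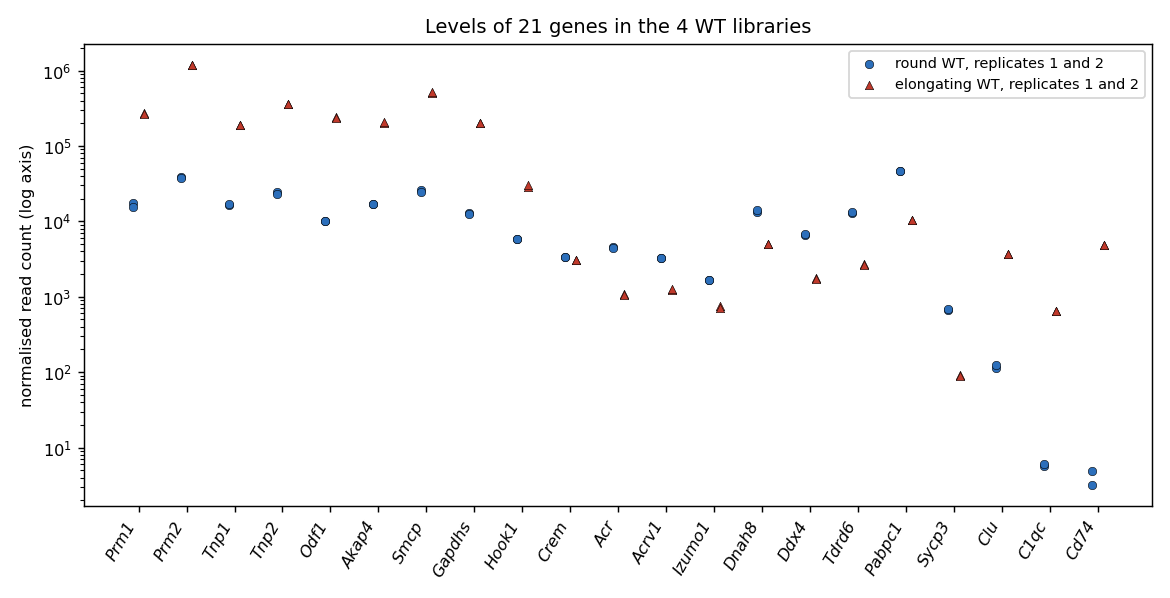
Normalised read count (y axis, log scale) of 21 genes in the 4 WT libraries, with blue circles for the 2 round and red triangles for the 2 elongating libraries. The libraries of a stage nearly coincide, the genes from Prm1 to Hook1 and Clu, C1qc and Cd74 are higher in elongating libraries on both scales, and those from Crem to Sycp3 are lower on both.

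Sex-linked genes and their autosomal copies were followed because the X and Y are silenced in meiosis and stay partly repressed afterwards. Among 20 genes listed as autosomal retrogenes derived from the X, 15 fell and 5 rose (median -0.88), and by share 16 fell and 3 rose. Pgk2 rose (3.37, also by share), Cetn1 rose by 0.34 but fell by share (-1.12), and Cstf2t fell by 0.77. Hspa1l also stands in the list and rose (3.31, also by share). It is not an X-derived retrogene, so the counts are not of such retrogenes alone. Pgk1, the X-linked parent of Pgk2, rose from 61.7 and 61.7 to 245 and 213 (1.87, 0.42 by share). Of 18 genes in a list of multicopy X and Y genes, not all of which are multicopy, 7 rose and 9 fell (38.9% and 50%, against 41.7% and 40.2% of all genes). By share 6 rose and 12 fell. The 5 tested Cypt genes rose on both scales, Cypt12 from 3182 and 3171 to 13907 and 14151 (2.14, 0.68 by share). The Y-linked Eif2s3y (-2.07) and Usp9y (-2.36), which are single-copy genes, fell. For the multicopy members reads may be split among copies, so values of single copies are uncertain. Over all 628 tested X-linked genes 47.0% rose and 36.0% fell (median 0.30), against 41.6% and 40.4% of 14916 autosomal genes (median 0.00). By share 173 X-linked genes rose and 366 fell. Of 14 tested Y-linked genes 2 rose and 9 fell.

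The direction of change varied with base composition. In quintiles of the 14428 tested protein-coding genes by the GC content of the longest annotated transcript, 27.2% rose and 57.3% fell in the lowest quintile (up to 43.9% GC), and 52.6% rose and 28.9% fell in the highest (over 55.5% GC). The shares of rises went up and those of falls went down through all 5 quintiles. By transcript length, 48.0% rose in the shortest quintile (up to 1897 bases) and 37.1% in the longest (over 5246 bases). Genes with 20 exons or more rose in 35.5% and fell in 50.6% of cases, against 45.2% and 36.0% with 2 to 4 exons. By share the lowest GC quintile had 356 rises and 2336 falls and the highest 719 and 1750. Transcript length, GC content and level are not independent of each other, and the part of library preparation in these gradients was not tested.

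**Figure D5:**
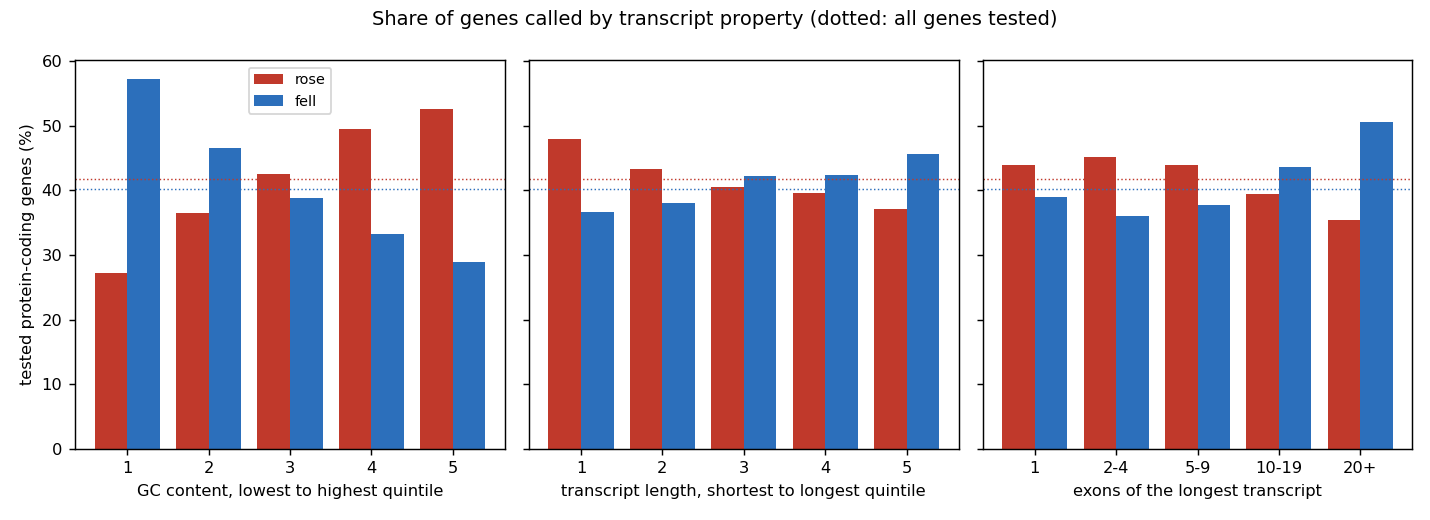
Percent of tested protein-coding genes that rose (red bars) or fell (blue bars) in elongating against round WT spermatids on the deposited scale, by quintile of transcript GC content, by quintile of transcript length and by exon number, with dotted lines at the values for all genes tested (41.7% and 40.2%). The bars cross over from 57.3% lower in the lowest to 52.6% higher in the highest GC quintile, and by total count falls outnumber rises in every GC quintile.

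The genes with the greatest rises are best known from immune cells. The 10 called genes with the largest rise, no overlap between stages and a mean of at least 200 in the higher stage included Cd74, H2-Aa, H2-Eb1, Ctss, Cyth4, C1qa, Mpeg1, Laptm5 and C1qc, most of them known from macrophages and antigen-presenting cells. Cd74, the invariant chain of class II molecules, measured 3.18 and 4.84 in round and 4792 and 4835 in elongating libraries (9.93 ± 0.15, 8.63 by share). H2-Aa measured 3.18 and 2.42 in round and 2017 and 2025 in elongating libraries (9.06 ± 0.16, 7.82 by share). Cyth4 had 3 reads in round and 352 in elongating WT libraries, a ratio of 257 in normalised reads with an exact 95% interval of 87.4 to 1254. These genes were nearly absent from both round libraries and present at like levels in both elongating ones.

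Markers of somatic cells of the testis moved with the stage. All 18 tested macrophage and leukocyte markers rose (median 5.29), and all 18 rose by share. Their summed share of reads went from 0.0298% and 0.0306% to 0.1004% and 0.0995%. Only 1 of them had a mean of at least 100 in round libraries, against 18 in elongating ones. Of the Sertoli markers that follow, 2 reached that mean in round and 19 in elongating libraries. Some markers, such as Cd74 and Sox9, lay below the filter level in both round WT libraries. They passed the filter through other libraries, so their direction is no support for the counts of rises in these lists. Summed shares here and below rest on the most abundant members and do not measure cell content. Of 24 Sertoli markers all 24 rose, 22 of them by share with 1 lower, from 0.00724% and 0.00731% to 0.0371% and 0.0371% of reads. Clu, abundant in Sertoli cells, measured 115 and 125 in round and 3662 and 3736 in elongating libraries (4.94 ± 0.07, 3.48 by share), Wt1 went from 16.5 and 14.5 to 371 and 337 and Sox9 from 3.82 and 6.66 to 90.2 and 88. Among 20 peritubular and vascular markers 17 rose, 15 by share with 4 lower, from 0.0271% and 0.0279% to 0.0816% and 0.0832% of reads, and Dcn rose from 17.8 and 17.6 to 806 and 777. Of 7 Leydig markers 6 rose and 1 fell, 5 and 1 by share, and their summed share was 0.00177% and 0.00171% in round and 0.00121% and 0.00126% in elongating libraries. Immediate early and stress genes, known to respond to tissue dissociation, moved as well, with 18 of 24 higher and 5 lower, and 14 and 7 by share. Their summed share of reads was lower in elongating libraries, 0.0985% and 0.0956% against 0.346% and 0.352% in round, and the abundant chaperone Hsp90aa1 fell from 19802 and 20596 to 4919 and 4728. Hspa5, a chaperone of the endoplasmic reticulum, fell from 5858 and 5989 to 1180 and 1191. Fos went from 20.4 and 25.4 to 1085 and 1214 (5.60, 4.16 by share), and Atf3 had 0 reads in round and 154 in elongating WT libraries, a ratio of 112.6 against a floor of 3 reads over the group, with an exact 95% lower limit of 90.5 for counting error. The listed markers are a small share of reads, which does not give the share of all RNA from somatic cells. The part of such cells in the rises of other genes, of low level or not, was not tested.

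With a level of at least 200 required in both stages, a rule added after the values were seen, the largest rises were those of 1700012A03Rik (5.35), Azin2, Tssk6, the carbonic anhydrase Car2 (5.09), Lrrc57 (5.08), the phosphatase Phospho1 (5.01), 1700080E11Rik (4.98), 5031439G07Rik (4.97), Prm2 and the kinase Pim1 (4.92), all of which also rose by share. Car2 measured 1064 and 1056 in round and 36290 and 36117 in elongating libraries (5.09 ± 0.03, 3.63 by share). Under the rule first named, the largest falls were those of 4930447C04Rik (-3.83), the protease Prss50 (-3.71), Gm364 (-3.55), fibronectin (Fn1, -3.47), the proliferation marker Mki67 (-3.44), the X-linked Polycomb relative Scml2 (-3.14), Sdk1 (-3.07), Abca5 (-3.00), 1700091H14Rik (-2.98) and Lrrc34 (-2.88). Prss50 measured 485 and 451 in round and 32.2 and 37.5 in elongating libraries. Lrrc34 fell from 6582 and 6567 to 879 and 899.8. With the level of 200 in both stages, Lrrc34 was followed by Sycp1 and by Ccdc173 (-2.73), Efhb (-2.67), Toporsl (-2.64), Lrrc49 (-2.62), Spen (-2.59), the cilia protein Cfap45 (-2.54), Lyar (-2.54) and Ccdc55 (-2.54).

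The same stage difference was measured in the 4 libraries labelled cKO, which share none of the WT libraries. Their Carm1 values were 1174 and 1343 at the round and 8157 and 7993 at the elongating stage, the latter above the WT libraries of that stage, and reads outside a deleted part would not show a deletion, so the label is used here as a name only. In these libraries 6677 genes rose and 6552 fell. Of the 6548 WT rises 5933 also rose there (90.6%, and 88.9% of the rises there), and of the 6300 WT falls 5693 also fell (90.4%, and 86.9% of the falls there). Opposite calls were few, with 67 genes up in WT and down there and 113 the reverse. Both comparisons share 1 estimate of the spread.

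Carm1 transcript was present at both stages in WT cells. It measured 1649 and 1686 in round and 4308 and 4534 in elongating libraries, a log2 fold change of 1.41 ± 0.05 (adjusted p = 1.5e-12, limma), and its share of reads did not pass the test (-0.06, adjusted p = 0.27, limma).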

How the data were processed

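Poly A RNA-seq libraries made with a TruSeq kit, per the labels, were analysed from 1 table. Its deposited values are a normalised signal per gene, which proved to be whole reads over 1 factor per library, set by the authors: after division by the smallest value of each column, 100% of values were whole at a tolerance of 1e-06. DESeq 1.16.0, HTSeq 0.6.0, TopHat2 2.0.10, CASAVA 1.8.2 and the builds mm10 and GRCm38 stand in the submitters' processing notes, without their roles. For the strand setting and annotation, the sources used here give nothing.

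Stage differences were fitted with limma 3.58.1 under R 4.3.3 (empirical Bayes, mean-variance trend) to log2(value + 1), which understates changes of low genes. The model held all 8 libraries and 4 group means, leaving 4 residual degrees of freedom. Alternatives were other scalings, pseudocounts and filters, the WT libraries alone, a replicate block, each library left out, and edgeR 4.0.16 and DESeq2 1.42.0 on the recovered reads. The limma step was tested on simulated data. Named genes were the 10 largest rises and falls under the rule stated above, the 10 genes with most reads per stage, set anchors and the extremes of each list, and Carm1, of which 1 is not reported here. Members and lists were chosen with earlier results of these data known, and genes may stand in several lists. Other members of a list were named after their values were seen, to illustrate its counts. Positions and transcripts came from GENCODE M21 for 16205 genes. Replicate numbers were not taken as pairs in the main fit.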

Additional observations from a re-analysis of the deposited data

Results flagged for a closer look

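The stage difference was itself set against that in the libraries labelled cKO with an interaction term. On the deposited scale it differed for 5781 of the 15685 genes (limma, Benjamini-Hochberg adjusted). Size factors were 1.57 and 1.77 in the round and 0.516 and 0.530 in the elongating libraries labelled cKO. The WT factors lay closer between stages, so this count and the values below depend on the scaling. They are not given by share. Of the named genes with a difference of at least 1 in log2, those that follow are given as the WT value minus the other. For the macrophage and antigen-presentation genes it was 2.28 for Cd74, 2.82 for H2-Aa, 2.01 for H2-Eb1, 2.16 for Ctss, 2.69 for Cyth4, 2.76 for C1qa, 2.37 for Mpeg1, 1.34 for Laptm5 and 3.04 for C1qc, all with a larger rise in WT. Atf3 (2.24) and the Sertoli marker Trf (1.51) also rose more in WT. Genes that fell less in WT were Acrv1 (1.03), Spaca1 (1.37), Slc25a31 (1.47), Ccna1 (1.10), Izumo4 (1.25) and Slco6c1 (1.10). Rps3 rose in WT and fell in the other libraries (1.03), and by share it fell in WT too. Carm1 rose less in WT (-1.28), with a stage difference of 1.41 in WT and 2.68 in the other libraries.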

How the results depend on the processing

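Main counts were 6548 rises and 6300 falls, 4853 and 3935 of them over 2-fold. Scaling by total count gave 3061 and 10792, and 2182 and 9196 over 2-fold. Leaving the 50 most abundant genes out of the library size gave 3843 and 9735, and 2781 and 7881 over 2-fold. Every other alternative stayed within 1.5 times these counts, edgeR with 6346 and 6927 and DESeq2 with 6231 and 5895 included. Without each library in turn, rises ranged from 6129 to 6696 and falls from 5761 to 6521, and over 2-fold from 4726 to 4865 and from 3771 to 3979. With a replicate block there were 6537 rises and 6305 falls. Deviations of same-numbered round and elongating WT libraries correlated at 0.015, which gives no sign of a pairing. Libraries of a stage lay so close that little shared deviation could be detected, so whether the numbers pair libraries is not known.

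Named genes with a value above 0 on the deposited scale and below 0 by total count, all called there as rises except Ubb, were Eef2 (-0.68), Ldhc (-0.92), Rfx2 (-0.59), Sox30 (-0.61), Adam3 (-0.52), Cylc2 (-0.35), Meig1 (-0.91), Piwil1 (-1.21), Eif4g3 (-1.22), Rplp0 (-0.40), Rps3 (-1.12), Psme4 (-0.97), Ubb (-1.19), Ube2b (-0.49), Cetn1 (-1.12), Taf10 (-0.33), Hnrnpa0 (-0.24), Cfap69 (-0.39) and Carm1 (-0.061). With those 50 genes left out they were Eef2 (-0.27), Ldhc (-0.50), Rfx2 (-0.18), Sox30 (-0.19), Adam3 (-0.11), Meig1 (-0.50), Piwil1 (-0.79), Eif4g3 (-0.80), Rps3 (-0.71), Psme4 (-0.55), Ubb (-0.77), Ube2b (-0.069) and Cetn1 (-0.71). Both shifts follow from the construction of these scalings. Ubb ranged from -0.53 without elongating WT replicate 2 to 1.09 without elongating WT replicate 1, and the cause was not tested. Depth limits genes of low level: with 3 reads in round libraries, the interval of the Cyth4 ratio ran from 87.4 to 1254.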
